A study of Mus musculus with 6 samples.

Results

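Transcripts of macrophages and other myeloid cells were examined in the prostate of TRAMP mice after OSU-CG5 or vehicle. The 44 genes were chosen by name as macrophage and myeloid genes, with earlier results of these data known. All 44 were measured, among 18193 genes on the arrays. The brightest probe set, by mean over 6 arrays, stands for a gene, and its other probe sets served as a check. The treated group was 3 intact male TRAMP mice given the compound OSU-CG5 at 100 mg/kg per day by mouth. The comparison group was 3 intact male TRAMP mice given vehicle. Treatment lasted 4 weeks, from 6 to 10 weeks of age, and tissue was taken 2 to 4 h after the last dose. All mice were F1 offspring of C57BL/6 TRAMP and FvB parents and carried the transgene, and no array came from a wild-type prostate. The TRAMP transgene drives SV40 T antigens from a prostate-directed probasin promoter, so the oncogene is active in epithelium and not by design in the leukocytes described here. RNA came from the dissected dorsal and lateral lobes, 1 Affymetrix array per mouse.

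Tissue macrophages depend on signals through the receptor Csf1r, which binds the growth factor Csf1, and on the transcription factor PU.1, the product of Spi1. They take up dead cells, microbes and lipids through scavenger, Fc and lectin receptors, digest them in lysosomes, secrete complement C1q, and present antigen. In the prostate they lie mainly in the stroma and between epithelial cells, and in tumours they can come from resident cells or from blood monocytes that carry Ccr2.

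The arrays did not all resemble each other. Pearson correlations across probe sets ran from 0.966 to 0.981 between vehicle replicate 2 and the other arrays. On that array the mean of 6 seminal vesicle transcripts was 7.91 on the log2 scale, against 3.56 to 4.55 on the OSU-CG5 arrays and 3.90 and 5.08 on the other vehicle arrays. Prostate epithelial markers, 10 of the 12 named, averaged 10.27 to 10.43 on the OSU-CG5 arrays and 10.43 to 10.53 on the vehicle arrays. The values are log2 signals, and no detection calls were used, so whether a dim probe set lay above background was not tested. Signals of different probe sets are not set against each other, since probes differ in brightness.

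Most macrophage and myeloid transcripts read lower after OSU-CG5, by small amounts. Of the 44 genes, 41 had a log2 difference (OSU-CG5 minus vehicle) below 0, beside 65.7% of all genes. The median difference was -0.30, and it was -0.09 over all 18193 genes. At an unadjusted limma p under 0.05, 16 of the 44 (36.4%) read lower, and the same held for 8.43% of all genes. In the other direction 0 of the 44 passed that threshold, beside 5.4% of all genes. The 3 OSU-CG5 arrays all lay below the 3 vehicle arrays for 18 of the 44, beside 14.2% of all genes. Among the 26 genes with a mean of at least log2 6, 10 read lower at that threshold in the fit over all probe sets, beside 7.17% of such genes, and 11 did not overlap, beside 10.9%. A difference of at least 1.5-fold was seen for 3 genes, Laptm5, Csf1r and Lyz1, all lower with OSU-CG5, beside 0.616% of all genes. Of these 3, only Csf1r reached 1.5-fold when probe sets marked as able to bind other transcripts were left out. None of the 44 passed Benjamini-Hochberg adjustment over all 45037 probe sets, where 0% of probe sets passed, and the smallest adjusted p among the 44 was 0.166 (limma). In bulk tissue, fewer macrophages and less RNA of these genes per macrophage cannot be told apart.

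These counts depended on single arrays. The count lower at an unadjusted p under 0.05 was 7 when OSU-CG5 replicate 2 was left out and 6 when replicate 3 of that group was, where 5.33% and 4.16% of all genes passed. Without vehicle replicate 2, the array with high seminal vesicle transcripts, the median of the 44 was -0.23 against -0.05 over all genes, and 15 read lower at that threshold (34.1%, beside 6.58% of all genes). Averaged over the 44 genes, the signal was 6.49, 6.28 and 6.27 on the OSU-CG5 arrays and 6.61, 6.75 and 6.57 on the vehicle arrays. OSU-CG5 replicate 1 thus lay closest to vehicle, and it was the highest OSU-CG5 array for 30 of the 44 genes (68.2%, beside 36.7% of all genes). Among the vehicle arrays, replicate 2 was the highest for 27 of the 44 (61.4%, beside 49.2% of all genes). Without OSU-CG5 replicate 1, groups that did not overlap were seen for 30 of the 44, beside 22.4% of all genes. That count was the top of the range over single arrays left out, where fewer values had to be apart.

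**Figure D1:**
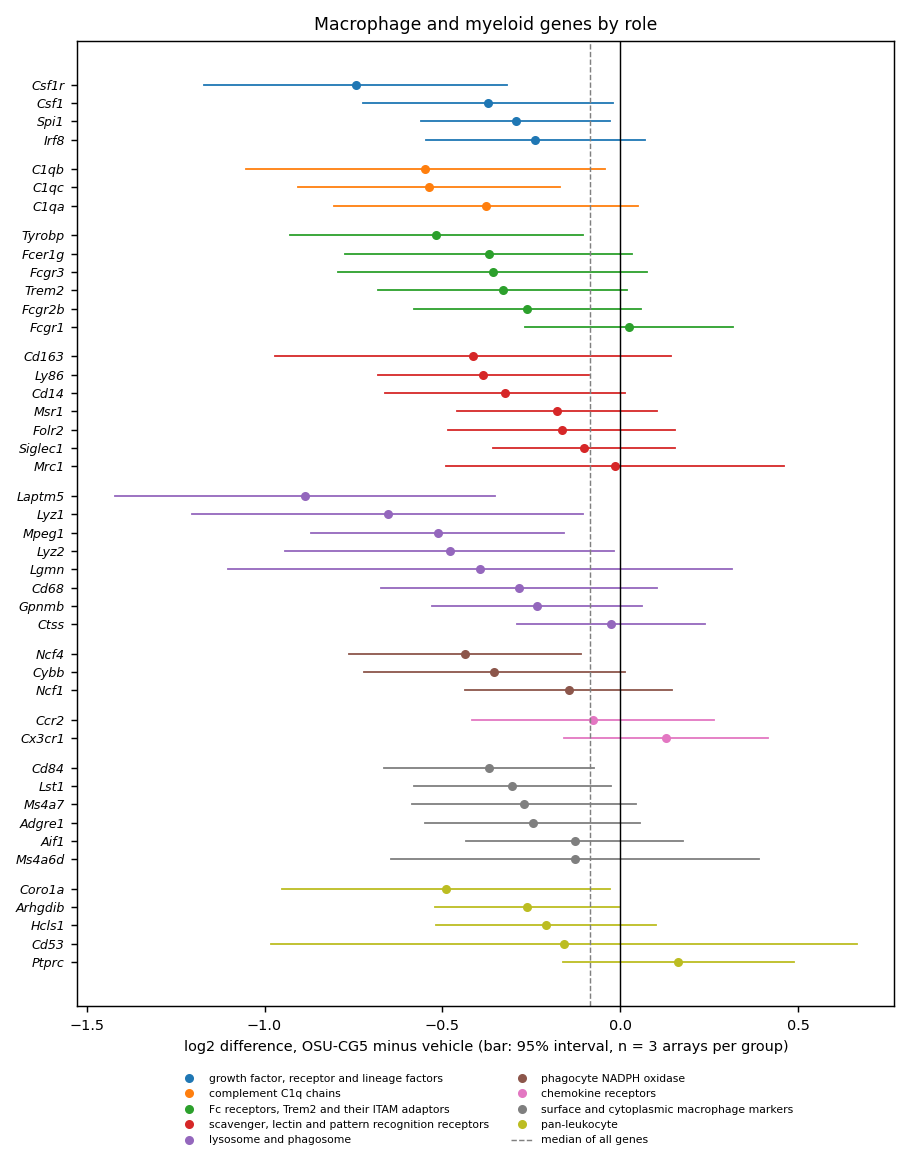
Log2 difference, OSU-CG5 minus vehicle, of each of the 44 genes (point) with its 95% interval from limma (bar), grouped by role, n = 3 arrays per group. Of the 44 points 41 lie left of 0, and the dashed line marks the median of all genes at -0.09.

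**Figure D2:**
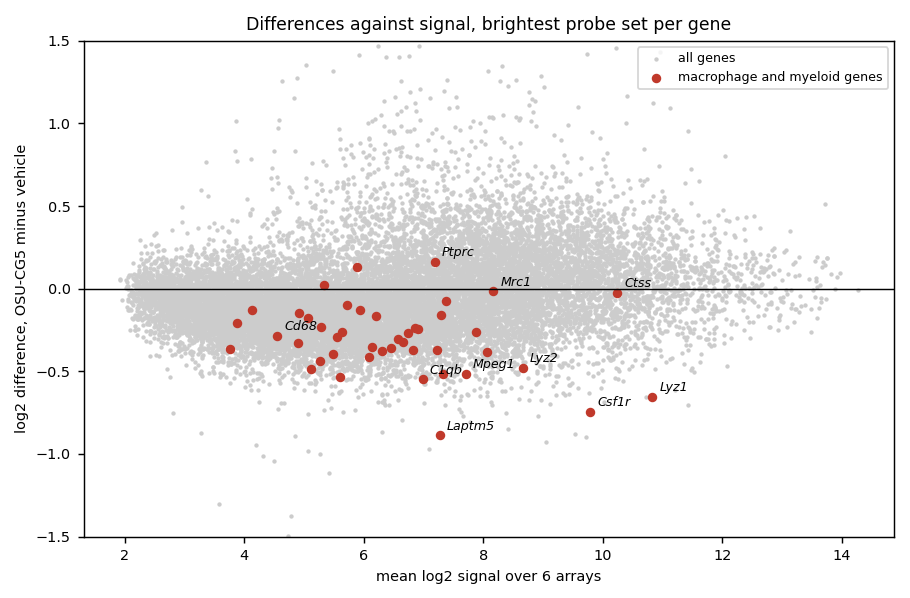
Log2 difference, OSU-CG5 minus vehicle, against the mean log2 signal over 6 arrays for all 18193 genes (grey) and the 44 macrophage and myeloid genes (red), with 7 genes outside the plotted range. Laptm5, Csf1r and Lyz1 lie lowest among the 44, while Ctss and Mrc1 lie near 0.

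All 4 genes of the growth factor axis had differences below 0, beside 65.7% of all genes. An unadjusted p under 0.05 was reached by 3 of the 4, beside 8.43% of all genes lower. Csf1r, the receptor that keeps macrophages alive, read 9.61, 9.34 and 9.29 on the OSU-CG5 arrays and 10.21, 10.47 and 9.79 on the vehicle arrays (log2 signal). The groups did not overlap, and vehicle replicate 3 lay nearest to the OSU-CG5 arrays. The means were 9.41 ± 0.18 with OSU-CG5 and 10.16 ± 0.34 with vehicle (SD, n = 3 each), -0.74 as a log2 difference (SE 0.19; limma adjusted p = 0.166). Without vehicle replicate 3, Csf1r alone of the 44 passed the adjusted threshold (log2 difference -0.93, limma adjusted p = 0.0415). Its adjusted p ran from 0.0409 to 0.457 over the alternatives. Both other Csf1r probe sets read lower too, by -0.58 (SE 0.17) and -0.40 (SE 0.13), again with no overlap between the groups.

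Csf1, the growth factor that binds this receptor, read 6.78, 7.18 and 7.19 with OSU-CG5 and 7.51, 7.51 and 7.24 with vehicle, -0.37 as a log2 difference (SE 0.15; limma adjusted p = 0.285). OSU-CG5 replicate 1 was the lowest array here, unlike for most of the 44 genes, and the difference was -0.24 without it. Its 3 other probe sets differed by -0.17, -0.26 and -0.26. Spi1, which encodes PU.1, read 5.42, 5.34 and 5.45 with OSU-CG5 and 5.58, 5.81 and 5.71 with vehicle, a difference of -0.29 (SE 0.12; limma adjusted p = 0.271). The groups were narrow and did not overlap. Irf8, a transcription factor of monocytes and dendritic cells, differed by -0.24 (SE 0.13) at its brightest probe set, or -0.14 without vehicle replicate 2, and by -0.34 (SE 0.12) at its other one.

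The 3 complement C1q chains, which tissue macrophages make and which start the classical complement pathway, had differences below 0, beside 65.7% of all genes. Of the 3, 2 had an unadjusted p under 0.05, beside 8.43% of all genes lower. In the RefSeq annotation C1qa, C1qb and C1qc lie next to each other on chromosome 4, with 0 coding genes between neighbours. C1qc read 5.42, 5.34 and 5.26 with OSU-CG5 and 5.60, 6.19 and 5.84 with vehicle, -0.54 as a log2 difference (SE 0.16; limma adjusted p = 0.197). Its groups did not overlap, and vehicle replicate 2 was highest. C1qb read 6.94, 6.41 and 6.79 with OSU-CG5 and 6.94, 7.71 and 7.13 with vehicle, a difference of -0.55 (SE 0.22; limma adjusted p = 0.277). OSU-CG5 replicate 1 and vehicle replicate 1 met at this probe set. A dimmer C1qb probe set differed by -1.04 (SE 0.22) and the dimmest by -0.42 (SE 0.15), both with no overlap. C1qa read 6.47, 5.98 and 5.89 with OSU-CG5 and 6.32, 6.75 and 6.41 with vehicle, a difference of -0.38 (SE 0.19) with overlapping groups. Without vehicle replicate 2 the differences were -0.25 for C1qa, -0.32 for C1qb and -0.38 for C1qc.

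Stretches upstream of C1qb and C1qc are shown because both neighbours read lower and both hold letters of the purine-rich sequence that PU.1 is known to bind. They are 130 bases each, 5′ to 3′ on the gene's strand, from RefSeq promoters of build GRCm38.p6. The C1qb stretch is chr4:136886201-136886330 on the minus strand and ends at the base before the start. The C1qc stretch is chr4:136893015-136893144 on the minus strand, from 230 to 101 bases before the start. Capitals mark GAGGAA or AGGAAGT on either strand.
C1qb: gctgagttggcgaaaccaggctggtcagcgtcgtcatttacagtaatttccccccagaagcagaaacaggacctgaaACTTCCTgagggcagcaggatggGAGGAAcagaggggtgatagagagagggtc
C1qc: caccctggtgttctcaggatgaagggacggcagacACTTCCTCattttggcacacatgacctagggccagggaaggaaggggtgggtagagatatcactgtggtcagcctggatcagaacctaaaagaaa
In C1qc the motifs overlap into GAGGAAGT on the opposite strand. RefSeq windows of 250 bases before to 50 after the start were found for 33 of the 44 genes, 42 windows in all. GAGGAA stood on either strand in 17 of the 42 windows (40.5%) and in 28.3% of all 32851 windows. AGGAAGT stood in 13 of the 42 (31%) and in 9.35% of all. GAGGAAGT, which holds both, stood in 3 of the 42 (7.14%) and in 3.2% of all. Genes for which both GAGGAA and AGGAAGT were found ran from C1qb at -0.55 to Ptprc at 0.16, with Mrc1 at -0.01. These matches are a description of letters and not of bound sites.

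Fc receptors and their adaptors gave a mixed picture. Tyrobp, the adaptor of Trem2 and related receptors, read 7.47, 6.81 and 6.90 with OSU-CG5 and 7.66, 7.53 and 7.55 with vehicle. The groups differed by -0.52 on the log2 scale (SE 0.18; limma adjusted p = 0.234), with no overlap. The vehicle arrays were tight, and OSU-CG5 replicate 1 came close to them. Fcer1g, the signalling chain shared by activating Fc receptors, read 6.73, 6.65 and 6.55 with OSU-CG5 and 6.71, 7.39 and 6.94 with vehicle. Its difference of -0.37 (SE 0.18) rested partly on vehicle replicate 2 and was -0.18 without it.

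Among the receptors, Trem2, a lipid and apoptotic-cell receptor, differed by -0.33 (SE 0.15), and the activating IgG receptor Fcgr3 by -0.36 (SE 0.19). Fcgr2b, the inhibitory IgG receptor, differed by -0.26 (SE 0.14) at its brightest probe set and by -0.52 to -0.06 at its 4 others. Fcgr2b and Fcgr3 are paralogs with 1 coding gene between them on chromosome 1, and their transcripts can share probe matches. Fcgr1, the high-affinity IgG receptor, read 5.35 ± 0.15 with OSU-CG5 and 5.33 ± 0.10 with vehicle (SD, n = 3 each). Its difference was 0.02, with a 95% interval from -0.27 to 0.32.

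Of 7 scavenger, lectin and pattern recognition receptors, all had differences below 0, beside 65.7% of all genes, with a median of -0.18. An unadjusted p under 0.05 was reached by 1 of the 7, beside 8.43% of all genes lower. That gene was Ly86, the secreted partner of the Toll-like receptor relative Cd180, with 8.05, 7.87 and 7.68 in OSU-CG5 and 8.30, 8.20 and 8.26 in vehicle. The difference was -0.38 (SE 0.13; limma adjusted p = 0.227), and the groups did not overlap. Cd14, the co-receptor for bacterial lipopolysaccharide, differed by -0.32 (SE 0.15), also with no overlap.

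Mrc1, the mannose receptor of resident macrophages, showed no such shift. It read 8.53, 8.02 and 7.94 with OSU-CG5 and 8.49, 8.18 and 7.86 with vehicle, so the groups covered the same range. The difference was -0.01 with a 95% interval from -0.49 to 0.46, and its sign turned when single arrays were left out. Cd163, the scavenger receptor for haemoglobin bound to haptoglobin, read 6.18, 5.78 and 5.69 with OSU-CG5 and 6.45, 6.69 and 5.76 with vehicle. Vehicle replicate 3 lay among the OSU-CG5 arrays, and the difference was -0.41 (SE 0.24; limma adjusted p = 0.421). Leaving out vehicle replicate 2 gave -0.22, and leaving out replicate 3 of that group gave -0.68. Msr1, Siglec1 and Folr2, further markers of resident macrophages, differed by -0.18, -0.10 and -0.16.

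Lysosomal and phagosomal genes had a median difference of -0.44 over 8 genes, beside -0.09 over all genes, and 4 of the 8 had an unadjusted p under 0.05, beside 8.43% of all genes lower. Laptm5, a lysosomal membrane protein of blood cells, read 7.20, 6.67 and 6.61 with OSU-CG5 and 7.64, 8.15 and 7.34 with vehicle. The groups did not overlap, and the means were 6.83 ± 0.33 with OSU-CG5 and 7.71 ± 0.41 with vehicle (SD, n = 3 each). The log2 difference of -0.89 (SE 0.23; limma adjusted p = 0.174) was the largest of the 44. The other 4 Laptm5 probe sets read lower by less, from -0.43 to -0.21.

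Mpeg1, a pore-forming protein of macrophage phagosomes, read 7.59, 7.36 and 7.40 with OSU-CG5 and 8.10, 8.13 and 7.66 with vehicle. The groups did not overlap, and the difference was -0.51 (SE 0.16; limma adjusted p = 0.200). Cd68, a lysosomal glycoprotein used to stain macrophages, read 4.44, 4.39 and 4.40 with OSU-CG5 and 4.53, 5.08 and 4.47 with vehicle, below the median signal of every array. Its difference of -0.29 (SE 0.17) was -0.09 without vehicle replicate 2. Lgmn, a lysosomal protease, differed by -0.39 (SE 0.31), and by -0.03 without that array. Gpnmb, a membrane protein of lysosome-rich macrophages, differed by -0.23 (SE 0.13).

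Ctss, the cathepsin that trims the class II invariant chain, hardly differed. It read 10.27, 10.21 and 10.21 with OSU-CG5 and 10.22, 10.39 and 10.16 with vehicle, a difference of -0.03 with a 95% interval from -0.29 to 0.24. That interval leaves out a difference as large as the -0.74 of Csf1r.

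Lysozyme, a bactericidal enzyme, is encoded in mice by Lyz1 and Lyz2, which RefSeq places side by side on chromosome 10. Lyz1 read 11.00, 10.34 and 10.17 with OSU-CG5 and 11.10, 10.87 and 11.49 with vehicle, -0.65 as a log2 difference (SE 0.24; limma adjusted p = 0.250). Lyz2 read 8.88, 8.26 and 8.13 with OSU-CG5 and 8.78, 8.85 and 9.08 with vehicle, a difference of -0.48 (SE 0.20; limma adjusted p = 0.292). For both genes OSU-CG5 replicate 1 lay within the vehicle range and the other OSU-CG5 arrays below it. Vehicle replicate 3 was the highest array for both, unlike for most of the 44 genes. The brightest Lyz1 probe set carries the suffix _x_at, given to probe sets with probes that can bind other transcripts, so its reading may include Lyz2. A dim Lyz1 probe set without that suffix read 4.14, 4.01 and 4.09 with OSU-CG5 and 4.46, 4.76 and 4.42 with vehicle, a difference of -0.46 (SE 0.13).

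The likeness of the pair close to the start is shown by their upstream sequences, with those of Laptm5, which differed most, and Ctss, which hardly differed. Each is 130 bases, 5′ to 3′ on the gene's strand, from RefSeq promoters of build GRCm38.p6, and capitals mark GAGGAA or AGGAAGT on either strand. The Lyz1 stretch is chr10:117292869-117292998 and the Lyz2 stretch chr10:117282273-117282402, both on the minus strand and ending at the base before the start. The Laptm5 stretch is chr4:130913186-130913315 on the plus strand and ends there too. The Ctss stretch is chr3:95526556-95526685 on the plus strand, from 230 to 101 bases before the start.
Lyz1: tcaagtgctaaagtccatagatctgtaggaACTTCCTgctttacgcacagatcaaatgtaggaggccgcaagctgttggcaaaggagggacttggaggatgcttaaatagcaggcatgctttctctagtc
Lyz2: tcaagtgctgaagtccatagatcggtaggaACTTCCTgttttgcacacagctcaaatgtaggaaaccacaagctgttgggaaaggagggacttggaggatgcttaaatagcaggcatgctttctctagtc
Laptm5: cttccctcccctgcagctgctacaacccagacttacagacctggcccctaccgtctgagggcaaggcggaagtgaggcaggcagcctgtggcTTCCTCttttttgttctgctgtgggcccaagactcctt
Ctss: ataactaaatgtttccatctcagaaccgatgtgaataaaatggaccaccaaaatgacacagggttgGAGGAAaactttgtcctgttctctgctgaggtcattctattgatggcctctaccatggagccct
The Lyz1 and Lyz2 stretches matched at 120 of 130 bases, while identity was 78.8% when the 250 bases before the start were aligned. Both held AGGAAGT on the opposite strand at the same distance from the start, 100 bases. GAGGAA stood upstream of Laptm5 and of Ctss, whose differences were -0.89 and -0.03. A RefSeq window of Ctss also held GAGGAAGT, outside the printed stretch, so this motif stood at Ctss and Cd53 as well as at C1qc.

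**Figure D3:**
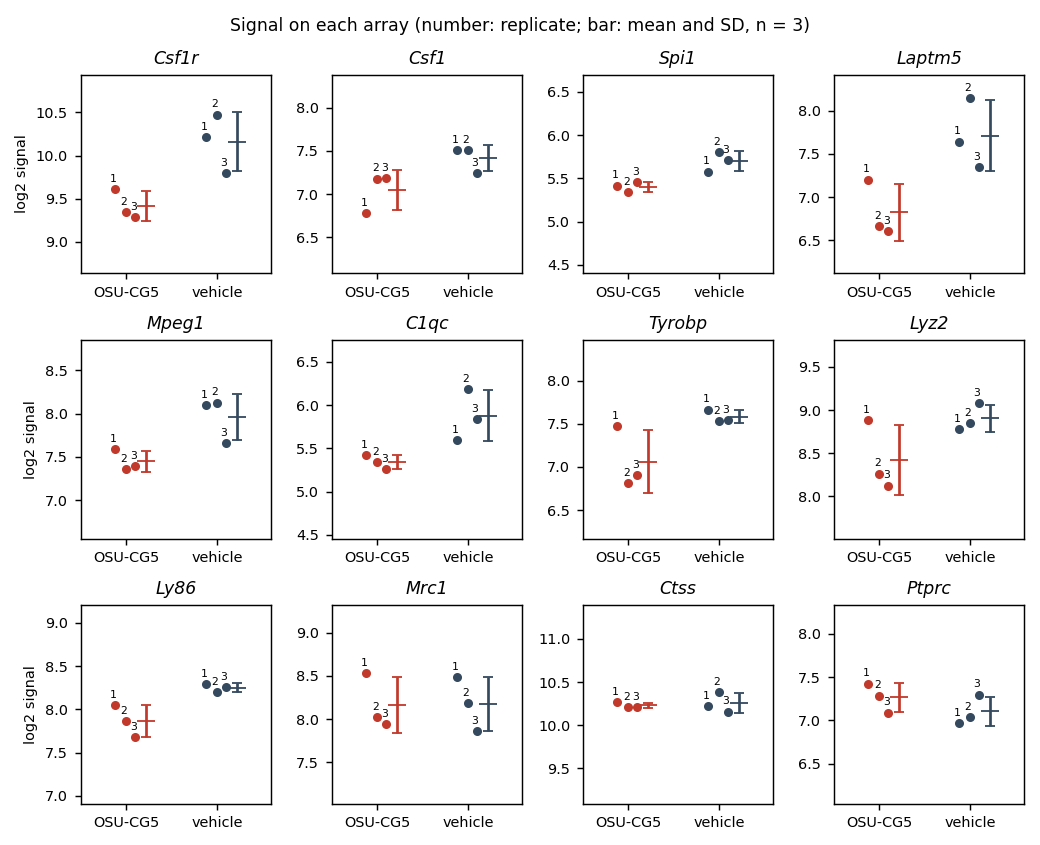
Log2 signal of 12 genes on each array, OSU-CG5 left and vehicle right, with replicate numbers, and the mean and SD of n = 3 arrays as a bar. Csf1r, Laptm5, Mpeg1 and C1qc have no overlap between groups, while Mrc1, Ctss and Ptprc overlap.

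The phagocyte NADPH oxidase makes superoxide in phagosomes. Ncf4, a cytosolic subunit, read 5.10, 4.82 and 5.23 with OSU-CG5 and 5.37, 5.62 and 5.47 with vehicle, a difference of -0.44 (SE 0.14; limma adjusted p = 0.218) with no overlap. Cybb, the membrane-bound catalytic subunit, differed by -0.35 (SE 0.16), and Ncf1, the organiser subunit, by -0.14 (SE 0.13). Outside the 44 genes, the other oxidase genes measured were Cyba, the membrane partner of Cybb, at -0.49 (SE 0.12; limma adjusted p = 0.161) and the small GTPase Rac2 at -0.39 (SE 0.11; limma adjusted p = 0.190).

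Receptors that guide monocytes differed little at their brightest probe sets. Ccr2, which draws monocytes out of the bone marrow, read 7.35, 7.33 and 7.37 with OSU-CG5 and 7.65, 7.49 and 7.13 with vehicle. The OSU-CG5 arrays lay within the vehicle range, and the difference was -0.08 with a 95% interval from -0.42 to 0.26. Cx3cr1, the fractalkine receptor, read 5.96, 5.88 and 6.00 with OSU-CG5 and 5.63, 5.93 and 5.89 with vehicle, a difference of 0.13 with an interval from -0.16 to 0.42. Its dimmer probe set pointed the other way, with 3.59, 3.35 and 3.64 in OSU-CG5 and 3.85, 4.36 and 3.75 in vehicle (-0.46, SE 0.18), so the direction for Cx3cr1 was not settled.

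Surface and cytoplasmic macrophage markers all had differences below 0, beside 65.7% of all genes, with a median of -0.26 over 6 genes. Adgre1, the adhesion receptor that defines mouse macrophages, read 6.76, 6.84 and 6.74 with OSU-CG5 and 6.93, 7.25 and 6.90 with vehicle. Its groups did not overlap, and the difference was -0.25 (SE 0.13; limma adjusted p = 0.383), or -0.14 without vehicle replicate 2. Lst1, a leukocyte membrane protein, read 6.36, 6.42 and 6.48 with OSU-CG5 and 6.83, 6.56 and 6.78 with vehicle, a difference of -0.30 (SE 0.12; limma adjusted p = 0.275) with no overlap. Cd84, a homophilic receptor of the SLAM family, read low on the scale, with 3.69, 3.66 and 3.37 in OSU-CG5 and 3.91, 4.03 and 3.89 in vehicle (-0.37, SE 0.13; limma adjusted p = 0.235). Ms4a7, a membrane protein of resident macrophages, differed by -0.27 (SE 0.14). Aif1, an actin-bundling marker, and Ms4a6d differed by -0.13 and -0.13, with OSU-CG5 replicate 1 above every vehicle array for both.

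Genes shared by all leukocytes did not move together. Ptprc, the tyrosine phosphatase CD45, read 7.43, 7.29 and 7.09 with OSU-CG5 and 6.97, 7.04 and 7.30 with vehicle, a difference of 0.16 with a 95% interval from -0.16 to 0.49. Its dim second probe set differed by -0.16 (SE 0.17). Cd53, a tetraspanin, read 7.71, 7.01 and 6.93 with OSU-CG5 and 7.80, 6.51 and 7.81 with vehicle, where vehicle replicate 2 was the lowest array of all. Its difference of -0.16 was -0.59 without that array (limma unadjusted p = 0.0217), and 0.055 and 0.061 without vehicle replicates 1 and 3. Coro1a, an actin regulator, read 5.15, 4.49 and 4.96 with OSU-CG5 and 5.05, 5.50 and 5.51 with vehicle (-0.49, SE 0.20; limma adjusted p = 0.284), and its difference was -0.30 without OSU-CG5 replicate 2. Arhgdib read 5.55, 5.46 and 5.50 with OSU-CG5 and 5.88, 5.70 and 5.72 with vehicle (-0.26, SE 0.11; limma adjusted p = 0.298), with no overlap. Hcls1, a cortactin relative of blood cells, differed by -0.21 (SE 0.13).

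**Figure D4:**
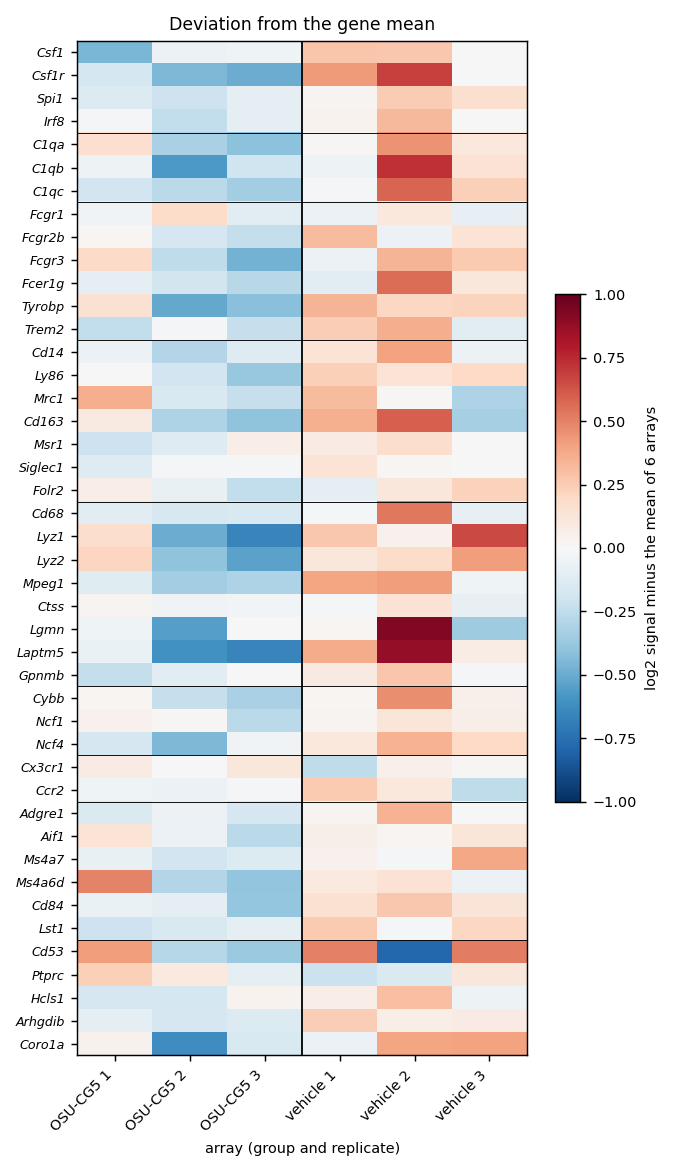
Log2 signal of each of the 44 genes on each array minus that gene's mean over 6 arrays, OSU-CG5 left and vehicle right, with lines between roles. OSU-CG5 replicate 1 is the highest OSU-CG5 array for 30 genes and vehicle replicate 2 the highest vehicle array for 27.

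The other probe sets of the same genes were a check on the direction. Of the 44 genes, 22 had more than 1 probe set, and the next brightest lay in the same direction for 15 of them. The median difference was -0.25 for the brightest and -0.18 for the next brightest. Of the 42 further probe sets, 37 were below 0, beside 60.5% of all probe sets. At an unadjusted p under 0.05, 10 of the 42 read lower and 0 higher, beside 6.8% lower and 9.63% higher among all probe sets. Directions differed for Fcgr1, Siglec1, Cx3cr1, Ms4a7, Ms4a6d, Cd53 and Ptprc. Among the brightest probe sets, 3 carried the suffix _x_at, those of Laptm5, Lyz1 and C1qb, and their differences were 3 of the 4 largest. With the brightest probe set free of the suffixes _s_at and _x_at, an alternative chosen after the data were seen, 43 genes could be read. An unadjusted p under 0.05 on the lower side was reached by 15 (34.9%, beside 7.97% of all genes), and the median was -0.29.

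**Figure D5:**
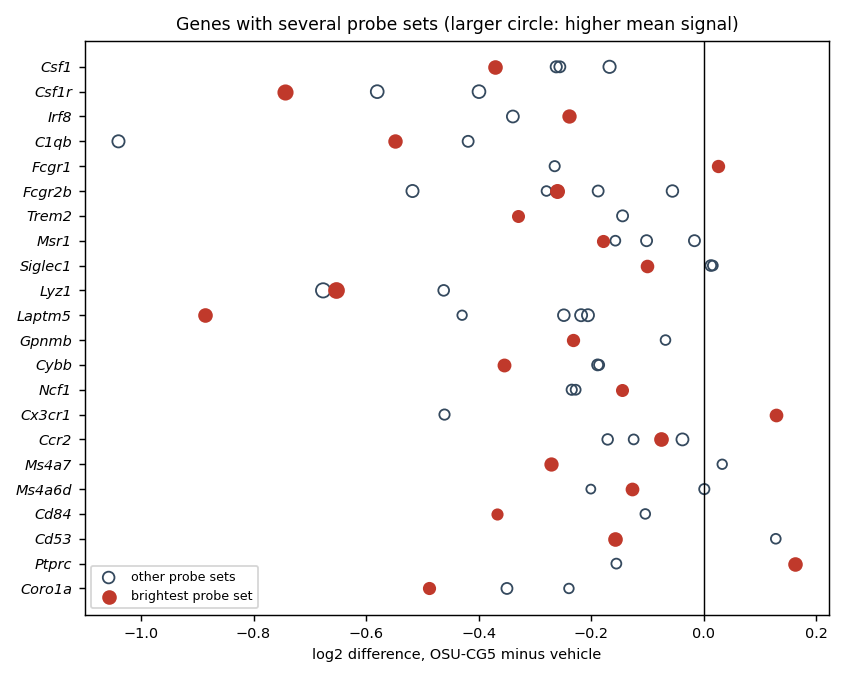
Log2 difference, OSU-CG5 minus vehicle, of the brightest probe set (filled) and the other probe sets (open) of the 22 genes with more than 1 probe set. Of the 42 open circles 37 lie left of 0, and for Cx3cr1, Ptprc and Fcgr1 the filled circle alone lies right of 0.

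Further genes of macrophage pathways, taken from lists by function, were read beside the 44. Counts are those at an unadjusted limma p under 0.05, which 8.43% of all genes reached lower and 5.4% higher, and 0 of these genes passed adjustment. Of 10 genes of ITAM and Fc receptor signalling 2 read lower, the kinase Syk at -0.29 (SE 0.11) and Pik3cd at -0.40 (SE 0.17). Of 7 colony-stimulating factor receptors and ligands 1 read lower, the progenitor receptor Flt3 at -0.39 (SE 0.14), while the shared receptor chain Csf2rb differed by -0.32 (SE 0.17) and Il34, the other ligand of Csf1r, by -0.25 (SE 0.15). Of 7 myeloid transcription factors 1 read lower, Cebpa at -0.33 (SE 0.14).

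Of 10 complement genes besides C1q, 2 read lower and 1 higher. Vsig4, a complement receptor of resident macrophages, read 3.60, 3.60 and 3.94 with OSU-CG5 and 4.14, 4.39 and 5.46 with vehicle (-0.95, SE 0.31; limma adjusted p = 0.219). Itgb2, the integrin chain of complement receptors, differed by -0.42 (SE 0.14). Cfp, the complement activator properdin, read 7.37, 7.54 and 7.35 with OSU-CG5 and 6.43, 5.73 and 6.86 with vehicle (1.08, SE 0.25; limma adjusted p = 0.156). Its other probe set differed by -0.46 (SE 0.18), so the direction for Cfp was not settled.

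Of 13 other phagocyte receptors 0 read lower and 1 higher, the apoptotic-cell receptor Mertk, with 8.30, 8.30 and 8.28 in OSU-CG5 and 7.89, 7.53 and 8.06 in vehicle (0.46, SE 0.15; limma adjusted p = 0.216). Its relative Axl differed by -0.51 (SE 0.22). Of 10 inflammatory activation genes and 8 alternative activation genes, 0 passed in either direction, with medians of -0.07 and -0.16. The co-stimulatory receptor Cd40 differed by -0.23 (SE 0.12), and the cytokine genes Il1b and Tnf by -0.22 (SE 0.15) and -0.15 (SE 0.13). Of the alternative activation genes, Tgm2 differed by -0.35 (SE 0.17), the chemokine Ccl17 by -0.23 (SE 0.13) and Arg1 by -0.34 (SE 0.20). Of 10 genes of lysosomal hydrolases and lipid handling 0 passed, and their median was -0.01, with Apoe at -0.40 (SE 0.19) and Ctsl at 0.31 (SE 0.15).

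Markers of other cell types were read beside these values. Over all genes the median was -0.09, and 8.43% were lower at an unadjusted limma p under 0.05. Class II genes, carried by macrophages, dendritic cells and B cells, had a median of -0.39 over 6 genes, 4 of them lower. Endothelium had a median of -0.30 (5 of 9 lower), smooth muscle -0.26 (4 of 8 lower), fibroblasts and matrix -0.26 (3 of 9 lower) and prostate epithelium -0.15 (1 of 10 lower). T cells had a median of -0.15 (3 of 8 lower), B cells -0.09 (1 of 7 lower), dendritic cells -0.14 (2 of 8 lower) and mast cells -0.24 (1 of 9 lower). Neutrophils had a median of -0.18 over 9 genes and natural killer cells -0.01 over 7, with 0 lower in either, and red blood cells -0.13 over 2 genes. The smooth muscle list averaged 9.17, 8.94 and 8.87 on the OSU-CG5 arrays and 9.11, 9.39 and 9.34 on the vehicle arrays. The endothelial list averaged 5.03, 4.95 and 4.89 with OSU-CG5 and 5.25, 5.46 and 5.11 with vehicle. Seminal vesicle transcripts had a median of -1.56 over 6 genes, with 0 lower at that threshold. Examples, chosen for the smallest p of their list, were H2-Aa of class II at -0.58 (SE 0.14) and Egfl7 of endothelium at -0.55 (SE 0.15). For smooth muscle and T cells they were Lmod1 at -0.57 (SE 0.12) and Cd3e at -0.36 (SE 0.12). Above 0 lay 1 of 6 class II genes, 0 of 9 endothelial, 1 of 8 smooth muscle and 2 of 8 T cell genes. The class II gene above 0 had no overlap between the groups. After the seminal vesicle transcripts, the class II, endothelial, smooth muscle and matrix lists thus had the lowest medians of these cell types. Mast cells came next at -0.24. Prostate epithelium had a median like those of T cells and dendritic cells, but 3 of 8 T cell genes read lower against 1 of 10 epithelial genes. The B cell median lay near that of all genes, and the natural killer cell median above it. These lists and the neutrophil list were dim, with 0 genes averaging log2 6 or more. Such genes were 8 of 8 for smooth muscle, 4 of 6 for class II and 2 of 9 for endothelium. The part of these cell types in the result was not tested.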

How the data were processed

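Log2 values per probe set, as deposited, came from RMA, per the submitters' processing notes, with the software version not given in the sources used here. RMA scales arrays together, which can remove part of a shift shared by most genes. Groups follow the tissue source label. In some treated samples a free-text note gives a different number behind the compound's prefix.

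After 64 controls were dropped, 45037 probe sets were tested with lmFit and eBayes of limma 3.58.1 in R 4.3.3, without a filter. The p-values were adjusted over this whole table (Benjamini-Hochberg, 0.05). SE is moderated, and SD is over 3 arrays. The 34945 probe sets with 1 symbol gave 18193 genes. The fit was tested on simulated data. Unadjusted counts are descriptive, and the number of arrays limits the precision. Each array is 1 mouse, per the labels.

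The 44 members and 22 other lists (175 of 199 genes measured) were chosen with earlier results of these data known. Per-array values are given for members with an unadjusted p under 0.05 and for 17 defining members, and up to 3 genes with the smallest p are named per list. Ctss, Cd53, Cfp, Vsig4 and Mertk were given per array after their values were seen. Alternatives were a minimum mean of log2 6, median centring, quantile normalization, cyclic loess, a trend with robust prior, no moderation, array weights, 1 probe set per gene, the mean of a gene's probe sets, and leaving out each array.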

Additional observations from a re-analysis of the deposited data

How the results depend on the processing

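With array weights 2 of the 44 genes passed the adjusted threshold, Csf1r and Laptm5, among 822 probe sets in all, and the count was 0 to 1 when single arrays were left out. The count lower at an unadjusted p under 0.05 was 8, beside 5.69% of genes, when probe sets averaging log2 6 or more were refitted. That refit covered 26 of the 44 genes, 10 of which passed in the fit over all probe sets. The count was 10 without moderation, beside 7.24% of all genes, and 6 to 16 with single arrays left out, beside 4.16% to 11.7%. The other alternatives gave 12 to 23, beside 6.86% to 11.3% of all genes. No gene of the 44 was higher at that threshold under any alternative run, beside 3.13% to 7.87% of the genes read. Groups that did not overlap numbered 11 with the minimum mean, since fewer genes were tested, beside 10.9% of such genes. They numbered 19 to 30 with single arrays left out, where fewer values had to be apart, beside 18% to 26.9% of all genes. The median difference ran from -0.36 with the minimum mean to -0.23 without vehicle replicate 2, and from -0.32 to -0.23 over the arrays left out. Mrc1 ran from -0.20 to 0.14 over the arrays left out, with 0.056 without OSU-CG5 replicate 2, 0.098 without OSU-CG5 replicate 3 and 0.14 without vehicle replicate 1. Ccr2 ran from -0.22 to 0.036, above 0 without vehicle replicate 1, and Cx3cr1 was -0.17 with the mean of its probe sets. For the other moved values the cause was not tested. Leaving out vehicle replicate 2 let 400 probe sets pass adjustment and leaving out vehicle replicate 3 let 885 pass, with Csf1r among the 44. No paired analysis was possible because the replicate numbers only name the mice.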
